A study of Homo sapiens with 2 samples.

Results

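The polyamine genes described here are 10 named genes of polyamine synthesis, its control and polyamine breakdown: ODC1, OAZ1, OAZ2, AZIN1, AMD1, SRM, SMS, SAT1, PAOX and SMOX. They were taken by gene symbol from the 25268 symbols of the deposited tables, and all 10 were found. The data came from mRNA sequencing of C4-2B MDVR, a castration-resistant human prostate cancer line derived from LNCaP cells, made resistant to the antiandrogen enzalutamide and maintained in medium with 20 µM enzalutamide. The 1 control library came from cultures given the vehicle DMSO for 3 days and the 1 treated library from cultures given 20 µM Indocin for 3 days. Values are given below as those with DMSO and those with Indocin, each from its library. Indocin is indomethacin, a nonsteroidal anti-inflammatory drug that inhibits the cyclooxygenases. Enzalutamide was thus part of the culture medium in both groups, and an untreated culture without it was not analysed here.

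Polyamines are small, positively charged molecules that bind nucleic acids and are needed for growth. Putrescine is made from ornithine, and aminopropyl groups from decarboxylated S-adenosylmethionine turn it into spermidine and then spermine. Acetylation marks spermidine and spermine for oxidation back towards putrescine or for export. The prostate epithelium makes and secretes unusually large amounts of spermine, and several of these genes are known to respond to androgen in prostate cells.

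The values were FPKM, which scale fragment numbers by transcript length and library size, so levels of different genes could be set side by side. Each group had 1 library, so there was no replicate check, no test and no error across cultures, and the read depth behind each value was unknown. Differences were expressed as the log2 ratio, log2((Indocin FPKM + 1)/(DMSO FPKM + 1)), so the fold of a gene at a low level is understated. A minimum of 1 FPKM on the mean left 11961 tested genes. Their median log2 ratio was -0.03 with quartiles of -0.15 and 0.11, and all 10 polyamine genes were among them. All 10 markers of luminal prostate epithelium fixed for this description were present, at 71.7 to 520.3 FPKM with DMSO and 58.1 to 362 FPKM with Indocin. Of 19 markers of basal, stromal, endothelial, immune and neuroendocrine cells, 17 were under 1 FPKM in both libraries, 5 of them (COL1A2, COL3A1, DCN, PECAM1 and CD3E) listed at 0. COL1A1 and ENO2 were the exceptions, and the 19 summed to 39.5 FPKM with DMSO and 38.4 FPKM with Indocin.

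Promoter sequence is shown first for the synthesis enzymes, whose ratios lay on the same side of 0, and for SAT1, which lay on the other side. The RefSeq promoter table (build GRCh38.p14, not the build of the deposited values) matched 7 of the 10 genes with 10 windows, and the 250 bases before each start were searched. Capitals mark the E-box CACGTG, to which MYC and related factors bind, the CCAAT box (CCAAT, or ATTGG on the other strand) and the TATA element TATAA. Of the SAT1 stretch below, 34 bases lie in an annotated exon, whose gene and strand were not recorded. The stretches leave out bases that GENCODE 29 annotates as untranslated regions, and positions are counted backwards from the transcription start. They are SRM at chr1:11060058-11060268 on the minus strand (positions -250 to -40), AMD1 at chr6:110874535-110874765 on the plus strand (-250 to -20), SMS at chrX:21940459-21940569 on the plus strand (-250 to -140) and SAT1 at chrX:23782923-23783133 on the plus strand (-250 to -40).
SRM: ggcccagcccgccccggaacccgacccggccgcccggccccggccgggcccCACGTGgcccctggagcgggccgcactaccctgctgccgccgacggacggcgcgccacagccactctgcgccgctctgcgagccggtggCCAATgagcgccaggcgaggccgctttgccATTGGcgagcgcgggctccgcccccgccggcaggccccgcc
AMD1: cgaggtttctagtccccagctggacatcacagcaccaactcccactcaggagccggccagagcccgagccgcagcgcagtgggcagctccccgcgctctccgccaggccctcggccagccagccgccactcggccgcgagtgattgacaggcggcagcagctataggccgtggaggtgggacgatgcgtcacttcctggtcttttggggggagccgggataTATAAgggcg
SMS: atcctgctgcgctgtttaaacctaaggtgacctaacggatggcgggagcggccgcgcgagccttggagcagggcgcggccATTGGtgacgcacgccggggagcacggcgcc
SAT1: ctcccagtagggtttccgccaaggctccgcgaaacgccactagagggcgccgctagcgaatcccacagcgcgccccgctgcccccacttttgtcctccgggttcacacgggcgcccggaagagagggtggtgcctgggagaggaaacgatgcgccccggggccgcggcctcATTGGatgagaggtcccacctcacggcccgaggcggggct

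ODC1 has a TATA element at position -32 of its upstream start and a pair of E-boxes near a second start further into the gene, which lie outside the exons that GENCODE 29 annotates for ODC1. That TATA element itself lies in bases that GENCODE 29 annotates as an untranslated region. The E-boxes begin at positions -29 and 6 from that second start, at chr2:10448024-10448053 and chr2:10447990-10448019 on the minus strand. They are shown because ODC1 is a classical MYC target and had the highest level of the 10 genes.
ODC1 upstream E-box: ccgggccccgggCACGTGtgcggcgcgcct
ODC1 downstream E-box: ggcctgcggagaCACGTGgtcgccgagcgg

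In the 250-base windows the E-box was found for SRM (position -199) and at the second start of ODC1, and 6.34% of the 35116 windows in the table hold it on either strand. The TATA element was found for ODC1 and AMD1, against 18.9% of all windows, and the CCAAT box for SRM, SMS, SAT1, OAZ1 and an alternative AMD1 start, against 32.0%. The GC box GGGCGG was found in at least 1 window of SRM, ODC1, AMD1, SMS, OAZ1 and OAZ2 and not in that of SAT1, against 42.6% of all windows. The shares count single windows, while ODC1 and AMD1 each have more than 1 window, so genes found and shares are unlike units. Neither TGATGNAA, a form of the C/EBP-ATF response element, nor TGACGTCA, the cyclic AMP response element, was found in any of the 10 windows, against 3.14% and 1.65% of all windows. With shares this low, few or no matches would be looked for in 10 windows, and AMD1 windows at neighbouring starts overlap almost fully. GC content over 250 bases was 82.0% for SRM, 78.8% for the upstream ODC1 start, 72.8% for SMS, 67.2% for AMD1 and 66.4% for SAT1. The members' other windows are not given here. Over all windows the median was 58.0% with quartiles of 46.4% and 68.0%, between which AMD1 and SAT1 lay. These matches describe letters and not bound sites.

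The comparison asked how transcript levels of the polyamine genes differed after Indocin in these enzalutamide-resistant cells. The 4 synthesis enzymes were all lower with Indocin, by 0.19 to 0.35 on the log2 scale, the 3 genes that control ornithine decarboxylase lay between -0.05 and 0.06, and the catabolic genes SAT1 and SMOX were higher while PAOX was close to 0. None of the 10 genes reached 1.5-fold in either direction, and 2.94% of all tested genes did (2.19% higher and 0.752% lower). A smaller bound asked that the larger value be at least 25% above the smaller on the FPKM + 1 scale. By it SAT1 and SMOX were higher and SRM was lower, which is 3 of 10 genes against 14.2% of all tested genes (6.91% higher and 7.3% lower). The call for SRM was lost under median centring (-0.32), both scalings (-0.27) and trend removal (-0.24), and that for SMOX with a pseudocount of 5 FPKM (0.24). The median of the 10 log2 ratios was -0.05, with 4 above 0 and 6 below. Over all tested genes the median was -0.03, with 44.8% above and 55.2% below 0. Scaled to an equal upper quartile or an equal sum, 6 were above 0 and 4 below, as OAZ2 and PAOX turned positive. Those scalings also moved the median of all tested genes, to 0.04 and 0.05, so the deposited shares do not apply to them.

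**Figure D1:**
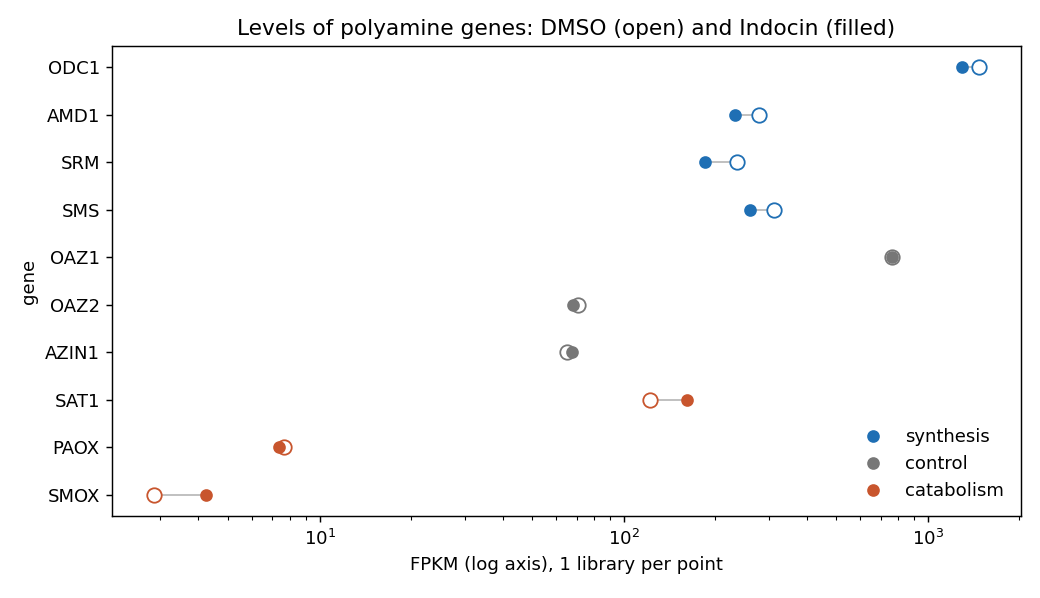
FPKM of each polyamine gene on a logarithmic axis, with the DMSO library as an open point and the Indocin library as a filled point, coloured by role. ODC1 lies highest at 1476 and 1295 FPKM and SMOX lowest at 2.85 and 4.25 FPKM, and the filled points of the 4 synthesis genes lie to the left of their open points.

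Levels spanned a wide range among the 10 genes. ODC1 was the 57th most abundant of 23203 symbols (short RNA genes left out) with DMSO and the 58th with Indocin. In both libraries the order by FPKM was ODC1, OAZ1, SMS, AMD1, SRM, SAT1, then OAZ2 and AZIN1 within 6 FPKM of each other, then PAOX and SMOX. The 10 genes summed to 3331 FPKM with DMSO and 3048 FPKM with Indocin, of which ODC1 alone held 44.3% and 42.5% and the 4 synthesis enzymes 69.1% and 64.7%. With no replicates, no spread could be set beside the gaps between neighbours in this order.

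ODC1 encodes ornithine decarboxylase, which makes putrescine and is a rate-limiting enzyme of the pathway. It stood at 1476 FPKM with DMSO and 1295 FPKM with Indocin, a ratio of FPKM of 0.877 and a log2 ratio of -0.19. This is the smallest difference of the 4 synthesis enzymes on the log2 scale and the largest in FPKM, because of the level of ODC1. Of all tested genes, 19.6% had a lower log2 ratio.

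AMD1 encodes S-adenosylmethionine decarboxylase, which provides the aminopropyl donor for both later steps. It stood at 278 FPKM with DMSO and 233 FPKM with Indocin (log2 ratio -0.26), and 12.2% of tested genes had a lower ratio. SRM, spermidine synthase, stood at 235 FPKM and 185 FPKM (-0.35), a ratio of FPKM of 0.786. It had the lowest ratio of the 10 genes, with 6.14% of tested genes below it. SMS, spermine synthase, stood at 313 FPKM and 261 FPKM (-0.26), with 11.8% of tested genes below it.

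All 4 synthesis enzymes were thus lower with Indocin, with a median log2 ratio of -0.26. Most abundant genes lay on that side too: of 1901 tested genes whose mean reached 50 FPKM, a bound set after the values were seen, 71.5% had a ratio below 0 and the median was -0.08, with quartiles of -0.18 and 0.01. The 4 enzymes lay below that lower quartile, ODC1 by the smallest margin. Under scaling of both libraries to an equal sum their ratios were -0.11 for ODC1, -0.18 for AMD1 and SMS and -0.27 for SRM, and under that scaling and under the same upper quartile (SRM -0.27) none of them reached the 25% bound. Their ratios stayed below 0 in every setting computed, both scalings and the removal of a trend over length, GC content and mean level included.

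**Figure D2:**
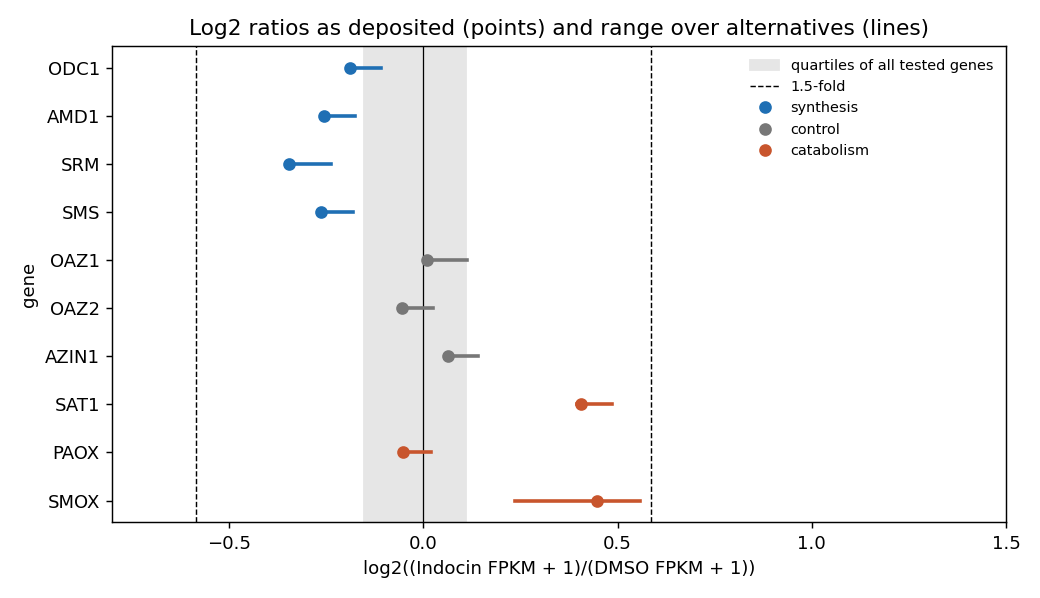
Log2 ratio of each polyamine gene (points), with a line from the lowest to the highest value over the settings tried. Grey shading spans the quartiles of all tested genes (-0.15 to 0.11) and dashed lines mark 1.5-fold, which no point or line crosses.

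Ornithine decarboxylase is controlled after translation by antizymes, which bind it, block it and carry it to the proteasome, and by antizyme inhibitor, which binds antizyme in its place. Antizyme is made only when the ribosome shifts frame at the stop codon of a first reading frame, a step that polyamines stimulate. Its messenger level therefore does not give its protein level. The shift sites of OAZ1 and OAZ2 are shown because they are the point at which control acts beyond the transcript, and they were read from GENCODE 29 transcripts that run through the site (7 for OAZ1 and 5 for OAZ2). Capitals mark the codon TCC and the stop codon TGA, and an annotated transcript of each gene leaves out the T of that stop codon. The 42 bases shown are identical between the 2 genes at 36 positions, the capitals included.
OAZ1: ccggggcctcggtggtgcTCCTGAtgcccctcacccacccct
OAZ2: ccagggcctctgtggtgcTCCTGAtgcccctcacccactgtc

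OAZ1 encodes the main antizyme and stood at 761 FPKM with DMSO and 765 FPKM with Indocin (log2 ratio 0.01), the ratio nearest to 0 of the 10 as deposited. It was 0.08 and 0.09 under scaling to an equal upper quartile and an equal sum, further from 0 than those of OAZ2 and PAOX, and 0.11 with the trend over length, GC content and mean level removed. As deposited, 96.6% of all tested genes lay as far from 0 or further. OAZ2, a second antizyme, stood at 70.9 FPKM and 68.2 FPKM (-0.05). AZIN1, antizyme inhibitor, stood at 64.9 FPKM and 67.8 FPKM (0.06). None of the control genes lay outside the quartiles of all tested genes. Under both scalings OAZ2 stood at 0.02.

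SAT1 encodes spermidine/spermine N1-acetyltransferase, the inducible enzyme that starts polyamine breakdown and export, and it is known to respond to polyamine excess, to androgen and, in colon cancer cells, to other nonsteroidal anti-inflammatory drugs. It stood at 122 FPKM with DMSO and 162 FPKM with Indocin, a ratio of FPKM of 1.33 and a log2 ratio of 0.41. Of all tested genes, 4.51% had a higher ratio. Its ratio was 0.40 to 0.49 over the settings tried, past the 25% bound and below 1.5-fold in each.

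SMOX, spermine oxidase, which turns spermine directly into spermidine and releases hydrogen peroxide, stood at 2.85 FPKM with DMSO and 4.25 FPKM with Indocin. Its ratio of FPKM was 1.49 and its log2 ratio 0.45, the highest of the 10 genes as deposited. Of tested genes of all levels, 3.72% lay above it. At this low level the ratio of SMOX depended on the pseudocount: it was 0.56 with 0.1 FPKM and 0.24 with 5 FPKM. The second was inside the 25% bound and below that of SAT1 (0.40). PAOX, the peroxisomal oxidase of acetylated polyamines that acts after SAT1, stood at 7.66 FPKM and 7.36 FPKM (-0.05), and at 0.01 and 0.02 under the 2 scalings.

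**Figure D3:**
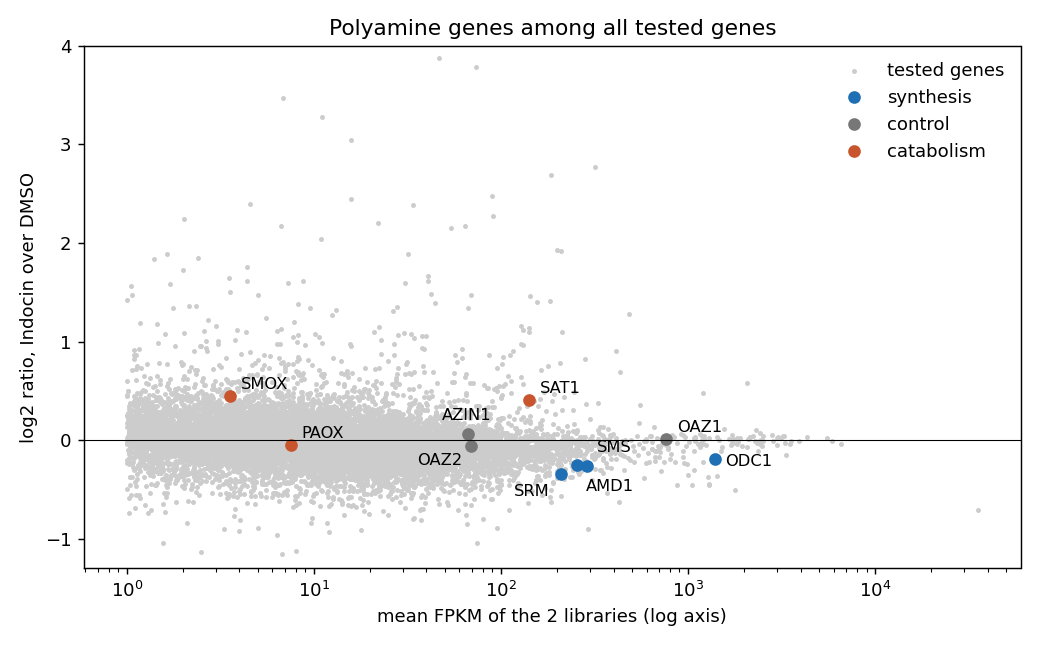
Log2 ratio against mean FPKM of the 2 libraries (logarithmic axis) for all 11961 tested genes in grey, with the 10 polyamine genes coloured by role and named. SAT1 and SMOX lie towards the upper edge of the grey cloud, the 4 synthesis genes in its lower part, and PAOX and the control genes near 0.

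Ratios between genes within a library do not depend on the scaling between libraries. The summed FPKM of ODC1, AMD1, SRM and SMS was 2302 with DMSO and 1973 with Indocin. The summed FPKM of SAT1, PAOX and SMOX was 132 and 174. The synthesis sum was thus 17.4 times the catabolism sum with DMSO and 11.4 times with Indocin, a quotient of 0.654. These sums rest mostly on ODC1 and SAT1. Without ODC1 alone the ratios were 6.24 and 3.91 (quotient 0.627). Without both they were 78.6 and 58.4 (quotient 0.744), over a catabolism sum of only 10.5 and 11.6 FPKM. All these sums are of FPKM. They compare transcripts and not enzyme activities.

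Among single pairs, ODC1 stood at 1.94 times OAZ1 with DMSO and 1.69 times with Indocin. AZIN1 stood at 0.0854 and 0.0887 times OAZ1, and OAZ1 at 10.7 and 11.2 times OAZ2, with quotients of 1.04 and 1.05 between the libraries. SRM stood at 0.752 and 0.71 times SMS, and AMD1 at 0.189 and 0.18 times ODC1, with quotients of 0.943 and 0.954. SMOX stood at 0.372 times PAOX with DMSO and 0.577 times with Indocin, and SAT1 at 15.9 and 22.0 times PAOX, while SAT1 stood at 42.8 and 38.1 times SMOX. The quotients of these 3 pairs were 1.55, 1.38 and 0.892. No pseudocount was used, and the pairs with SMOX rest on its low level (2.85 FPKM with DMSO and 4.25 FPKM with Indocin). Only the pairs listed here were computed.

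**Figure D4:**
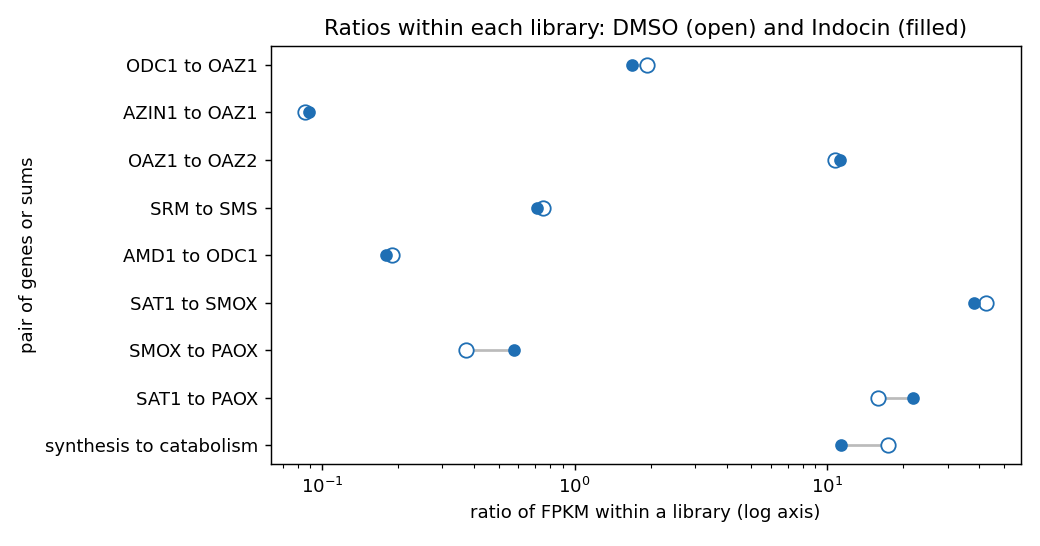
Ratio of FPKM within each library for 8 pairs of polyamine genes and for summed synthesis over summed catabolism genes, on a logarithmic axis, with DMSO open and Indocin filled. The points of SMOX to PAOX (0.372 and 0.577) and of synthesis to catabolism (17.4 and 11.4) lie furthest apart. No pseudocount was used, and SMOX was at a low level.

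Close relatives of these genes were also listed. These and the lists below were chosen with earlier results of these data known, so their counts describe and do not test. SAT2, a second acetyltransferase gene of the SAT family, stood at 43.2 FPKM with DMSO and 42.2 FPKM with Indocin (log2 ratio -0.03, positive under either scaling). OAZ3, known as the antizyme of the testis, stood at 10.4 FPKM and 11.5 FPKM (0.14). AZIN2, listed under its older symbol ADC, stood at 0.348 and 0.349 FPKM and SATL1 at 0.258 and 0.332 FPKM, both under the minimum mean.

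Ornithine comes from arginine through arginase, and 2 genes of this supply, SLC7A1 and ARG2, were at least 1.5-fold higher with Indocin. SLC7A1, the main cationic amino acid transporter, which carries arginine and ornithine, stood at 42.3 FPKM with DMSO and 81.4 FPKM with Indocin (0.93). ARG2, mitochondrial arginase, stood at 21.5 FPKM and 33.3 FPKM (0.61). This is 2 of 9 tested genes of the list, against 2.19% of all tested genes, and none was as much lower. Since the list was chosen with earlier results of these data known, the share beside it is no test. The lowest ratios were those of the mitochondrial ornithine carrier SLC25A15 (-0.17) and of ALDH18A1 (-0.06), which makes the precursor of ornithine and proline. The list median was 0.13, with 7 ratios above 0 and 2 below (8 and 1 under either scaling, where ALDH18A1 turned positive). It was 0.07 with no filter on low values or a pseudocount of 5 FPKM and 0.32 over the 3 genes whose mean reached 50 FPKM, and with a pseudocount of 5 FPKM only SLC7A1 was past 1.5-fold.

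The methionine cycle supplies S-adenosylmethionine, and the salvage pathway recovers methionine from methylthioadenosine, the by-product of SRM and SMS. MAT2A, the S-adenosylmethionine synthetase of most tissues, named after its value was seen, stood at 109 FPKM with DMSO and 105 FPKM with Indocin (-0.05, and 0.03 under either scaling). MTAP, which starts the salvage, stood at 14.4 FPKM and 11.3 FPKM (-0.32), and the next enzyme MRI1 stood at 13.0 FPKM and 10.8 FPKM (-0.24). The other salvage enzymes APIP (-0.13), ENOPH1 (-0.14) and ADI1 (-0.10), named after their values were seen, were also below 0, and MTAP, MRI1, APIP, ENOPH1 and ADI1 stayed so under both scalings. GOT1, cytosolic aspartate aminotransferase, stood at 50.04 FPKM and 78.4 FPKM (0.64) and was the only 1 of 14 tested genes past 1.5-fold, against 2.94% of all tested genes. The list median was -0.06, with 6 above 0 and 8 below, and it changed sign, to 0.01 and 0.02, with the same upper quartile and the same sum.

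Of 14 genes linked to polyamine transport 8 were tested. ATP13A2, the lysosomal polyamine exporter, stood at 16.6 FPKM with DMSO and 16.4 FPKM with Indocin (-0.02). ATP13A3, a P-type ATPase of polyamine uptake, stood at 25.9 FPKM and 23.1 FPKM (-0.16), and the heparan sulfate carrier GPC1 at 13.4 FPKM and 11.98 FPKM (-0.15). The 2 of 8 genes at least 1.5-fold higher, against 2.19% of all tested genes, were SLC3A2 (85.2 and 226 FPKM, 1.40) and SLC7A5 (78.9 and 178 FPKM, 1.16). Those form the heavy and light chain of a large neutral amino acid transporter, and SLC3A2 pairs with several other amino acid transporters. The other tested genes of the list lay between -0.16 and 0.25. This list too was chosen with earlier results of these data known, so the share is no test of it. The list median was 0.18, with 5 above 0 and 3 below (6 and 2 under either scaling, where ATP13A2 turned positive). It was 0.01 over all 14 genes with no filter on low values and 1.28 over the 2 genes whose mean reached 50 FPKM, which are SLC3A2 and SLC7A5.

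Spermidine is also the substrate for hypusine, a modified lysine of the translation factor eIF5A. EIF5A stood at 718 FPKM with DMSO and 619.7 FPKM with Indocin (-0.21), and its paralog EIF5A2 at 4.77 FPKM and 4.10 FPKM (-0.18). DOHH, which completes hypusine, stood at 22.4 FPKM and 18.3 FPKM (-0.28), and DHPS, which starts it, at 42.9 FPKM and 42.7 FPKM (-0.01). All 4 tested genes were below 0 as deposited, against 55.2% of all tested genes and 71.5% of those whose mean reached 50 FPKM. Of the 4 only EIF5A reached that mean, so the second share does not match the list by level. Both shares are as deposited. Under either scaling 3 of the 4 were below 0, as DHPS turned positive, while the median of all tested genes moved above 0. As deposited, none of the 4 was past the 25% bound, against 14.2% of all tested genes, and the list median was -0.20. Reads of EIF5A may be shared with close copies such as EIF5AL1, listed at 0.248 and 0.158 FPKM.

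Among genes that oxidise amines and the aldehydes made from them, none of 6 tested was past 1.5-fold, against 2.94% of all tested genes, and the median was 0.03. ALDH2, mitochondrial aldehyde dehydrogenase, stood at 34.8 FPKM with DMSO and 49.7 FPKM with Indocin (0.50), and ALDH9A1, which acts on aminobutyraldehyde from putrescine, had a ratio of 0.11. The copper amine oxidases AOC3 (2.78 and 2.00 FPKM, -0.33) and AOC2 (-0.10) were lowest. AOC1, the diamine oxidase that degrades putrescine outside cells, named after its value was seen, was under the minimum mean at 0.331 and 0.309 FPKM.

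**Figure D5:**
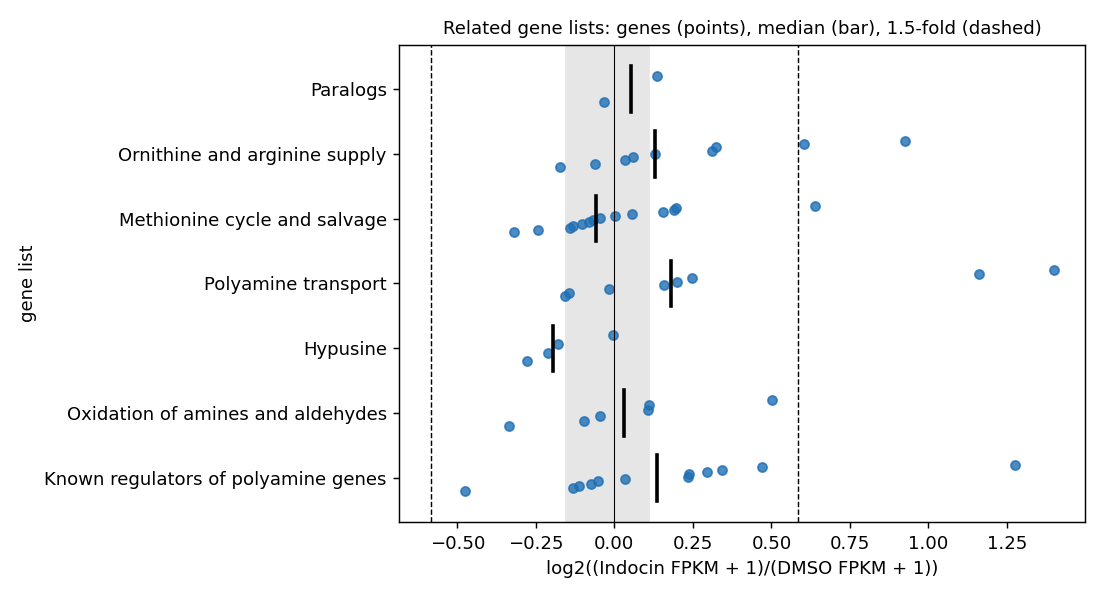
Log2 ratios of the tested genes of 7 related lists (points), with each list's median (bar), the quartiles of all tested genes in grey and 1.5-fold as dashed lines. The points past the right dashed line are SLC7A1, ARG2, GOT1, SLC3A2, SLC7A5 and ATF4, and none lies past the left one.

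Known regulators of polyamine genes were read from a list of 13, of which 12 were tested. MYC, which binds the E-boxes of ODC1 and activates several synthesis genes, stood at 114 FPKM with DMSO and 81.6 FPKM with Indocin (-0.48), the lowest ratio of the list. Its partner MAX stood at 34.9 FPKM and 31.7 FPKM (-0.13). ATF4, a transcription factor of amino acid shortage, stood at 284 FPKM and 689 FPKM (1.28) and was the only 1 of 12 past 1.5-fold, against 2.94% of all tested genes. PPARG, a nuclear receptor linked to SAT1 induction by anti-inflammatory drugs in colon cells, stood at 3.82 FPKM and 5.67 FPKM (0.47). The list median was 0.13, with 7 above 0 and 5 below, and it was -0.01 over the 10 genes whose mean reached 5 FPKM. Whether any of these regulators had a part in the differences of the polyamine genes was not tested.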

How the data were processed

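Directional mRNA libraries were made from total RNA with a stranded kit, per the labels' protocols. The authors deposited 1 FPKM value per gene symbol, per the file headers. TopHat, Cufflinks, StringTie, Cuffnorm and bcl2fastq, with the builds hg19 and GRCh37, appear in the submitters' processing notes. Which tool did what, which annotation was applied and whether strand was counted: not given in the sources used here. Since FPKM are no counts and each group had 1 library, no test was made. FPKM summed over all symbols to 617510 (DMSO) and 583096 (Indocin), short RNA symbols included, which the equal sum described below left out.

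Log2 ratios used a pseudocount of 1 FPKM and a minimum mean of 1 FPKM, without 2065 short RNA symbols recognised by their prefix (Python 3.11.15, pandas 2.3.3). No prefix covered BCYRN1, which had a mean of 35437.8 FPKM and a log2 ratio of -0.71. It therefore stayed in the equal sum, which depends in part on that symbol. Genes were counted at 1.5-fold and at a 25% bound. The calculation was tested on simulated data whose planted changes were larger than that of any member. That check does not bear on the members' differences. The alternatives were other pseudocounts (0.1 and 5 FPKM), other minimum means (none, 5 and 50 FPKM), median centring, an equal upper quartile, an equal sum, short RNA genes kept, the 25% bound, and a regression on length, GC content and mean level (GENCODE 29, 93.8% of tested genes). The 50 FPKM minimum and the regression were added after seeing the data. All 10 members were named. Of each of 7 related lists, tested genes past 1.5-fold and the 2 highest and 2 lowest ratios were named. A gene that this rule names is not reported here. Members and lists were chosen with earlier results of these data known.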

Additional observations from a re-analysis of the deposited data

How the results depend on the processing

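The counts of polyamine genes past 1.5-fold were 0 higher and 0 lower in every setting that kept that threshold, and 2 higher (SAT1, SMOX) and 1 lower (SRM) at the 25% bound. The median log2 ratio of the 10 genes was -0.05 as deposited and changed sign to 0.02 with the same upper quartile (0.0158) and the same sum (0.0222), where OAZ2 and PAOX moved above 0. Those scalings moved the median of all tested genes from -0.03 to 0.04 and 0.05. The quotient of the synthesis to catabolism ratios was 0.654 with all genes, 0.627 without ODC1 and 0.744 without ODC1 and SAT1. With the trend over length, GC content and mean level removed, SRM was at -0.24, ODC1 at -0.14 and OAZ1 at 0.11. The number of all tested genes past 1.5-fold was 262 higher and 90 lower, 420 and 189 with a pseudocount of 0.1 FPKM, 126 and 36 with 5 FPKM, 323 and 59 with the same upper quartile and 330 and 55 with the same sum. Medians of short lists moved with the settings: that of amine and aldehyde oxidation lay between 0.00 and 0.10 and that of the regulators between -0.01 and 0.21. SMOX was not tested at a mean of at least 5 FPKM, nor SMOX and PAOX at 50 FPKM. No paired analysis was possible because each group had 1 library. The unknown depth and the lack of replicates leave the error of every ratio unknown.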
